A study of Homo sapiens with 8 samples.

Results

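The forkhead genes encode transcription factors that bind DNA through a winged-helix domain. They were taken as the protein-coding genes on chromosomes 1 to 22 whose GENCODE symbol is FOX followed by a subfamily letter and a number, which gave 48 genes in 19 subfamilies, of 19111 protein-coding genes. The genes FOXRED1, FOXRED2 and FOXL2NB share the first letters of the symbol but are not forkhead genes and were left out. Forkhead factors act in the formation of many organs: FOXA factors open chromatin in endoderm, and FOXC, FOXD and FOXF factors act in mesoderm and neural crest. FOXO factors carry signals from insulin and growth factors to the genome and are kept out of the nucleus by AKT, while FOXM1 drives genes of cell division. Many forkhead genes of development are known targets of Polycomb repressive complex 2 (PRC2) in stem cells, where the complex methylates lysine 27 of histone H3 around their CpG-rich promoters.

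Chromatin accessibility was measured by ATAC-seq, in which the transposase Tn5 cuts open chromatin and the fragments are sequenced, in 4 lines of HEK293T, a human embryonic kidney cell line. The lines were made by lentiviral infection and blasticidin selection, each with a different form of EZH2, the methyltransferase of PRC2, and 2 libraries were made from each. The forms were the wild type (WT), the mutants Y641F and A677G, which the study takes to gain function (GOF), and the double mutant H689A/F667I, taken to lose function (LOF). Each line was infected with its own EZH2 construct, so the WT line also carried an added EZH2, and no step that removes the cells' own EZH2 is described for any line. Each genotype was 1 selected line, called monoclonal in the study's methods, so effects of the genotype and of the line cannot be told apart.

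The data were lists of broad peaks that the authors called in each library. A promoter is called open here where a peak covers at least 1 bp within 1 kb of any transcription start site (TSS) of the gene, and closed where no peak does, which does not mean that there was no signal. The width is the summed length of those peaks in bp. The fold is the highest ratio of signal to local background among them, and the −log10 p is the highest peak significance, both as MACS2 gave them. In such bulk libraries, fewer cells with an open site and a less open site in each cell cannot be told apart. The read depth is unknown. The lists differed in length, with 62739 and 60420 autosomal peaks in WT, 25423 and 35380 in Y641F, 36744 and 44754 in the A677G line, and 46317 and 47164 in LOF. The EZH2 promoter was open in all 8 libraries. A list of 16 genes was chosen as markers for HEK293T, taken as embryonic kidney with neuronal and adrenal features. Of these, 12 were open in all 8 libraries, INA, KRT18 and NEFH in some, and PAX8, a factor of kidney lineages, only in the 2 WT libraries (1326 and 626 bp), so that it was lost in all 3 mutants. Of the promoters of hepatocyte, leukocyte, erythroid, muscle and keratinocyte markers, the largest number open in all 8 libraries was 1 per list, namely LCP1 of 6 leukocyte and MYOD1 of 4 muscle genes.

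Forkhead promoters were open less often in the Y641F libraries than in the other libraries. A promoter peak was found for 33 and 36 of the 48 genes in the WT libraries, for 26 and 26 in Y641F, for 30 and 30 in A677G, and for 31 and 34 in LOF. Both Y641F libraries were the lowest, and the ranges of the WT and LOF libraries overlapped. Among all genes, 74.5% and 74.0% of promoters were open in WT, 61.2% and 67.8% in Y641F, 69.6% and 71.5% in A677G, and 71.9% in each LOF library, so the same order of lines was seen over all genes. The difference between forkhead genes and other genes was not tested.

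**Figure D1:**
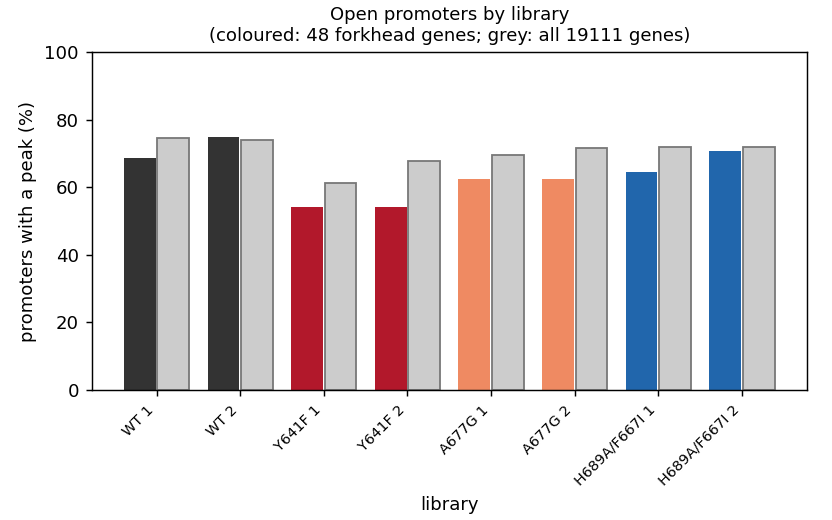
Share of promoters with a peak (y axis, in percent) in each of the 8 libraries (x axis). Coloured bars are the 48 forkhead genes and grey bars all 19111 protein-coding genes. The coloured bars are lowest in the 2 Y641F libraries, at 26 of 48 genes each, and the grey bars are lowest there too.

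Of the 48 promoters, 25 were open in all 8 libraries (59.7% of all genes were), 11 in some and 12 in none (21.7% of all genes). The 25 included all members of the FOXB, FOXF, FOXJ, FOXM, FOXO, FOXP and FOXQ subfamilies. Among them were both factors that act in most cell types, such as FOXJ3, FOXK2, FOXM1, FOXN2 and the FOXO genes, and factors of single organs, such as FOXF1 of the gut and lung mesenchyme and FOXJ1 of ciliated cells. The 11 promoters open in some libraries were those of FOXA1, FOXA2, FOXC1, FOXC2, FOXD3, FOXE1, FOXH1, FOXK1, FOXN4, FOXR1 and FOXS1. The 12 closed in every library were FOXE3 of the lens, FOXI1 of the inner ear and kidney, FOXI2, FOXL2 of the ovary, FOXL3, FOXN1 of the thymus, and FOXD4 with its copies FOXD4L1, FOXD4L3, FOXD4L4, FOXD4L5 and FOXD4L6.

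**Figure D2:**
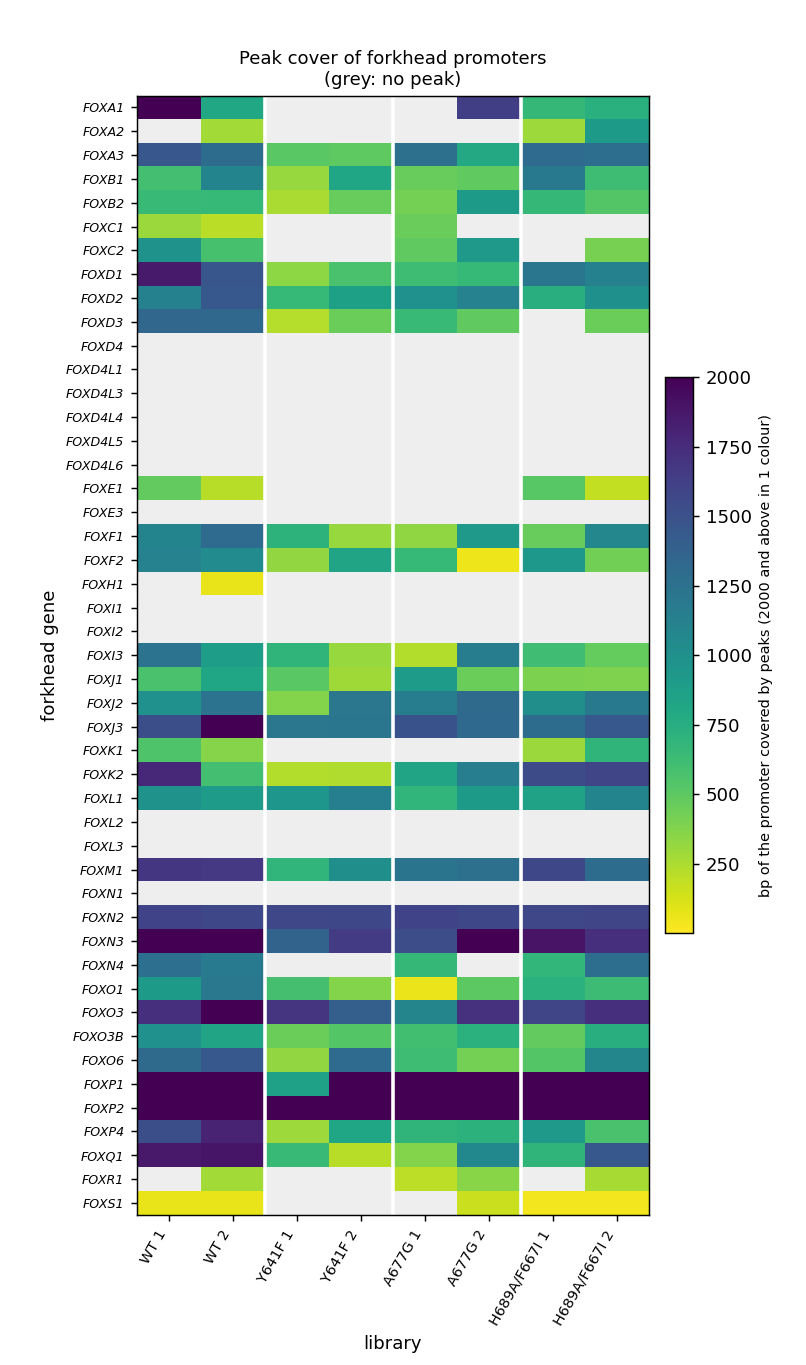
Number of promoter bases covered by peaks (colour, in bp, with 2000 and above in 1 colour) for 47 of the 48 forkhead genes (rows, by subfamily) in each of the 8 libraries (columns, by line). Grey cells have no peak. FOXK1 and FOXE1 are grey in the 4 GOF libraries, and the 6 genes from FOXD4 to FOXD4L6 are grey throughout.

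The forkhead promoters were rich in CpG. Within 1 kb on either side of the canonical TSS they held a median of 161 CpG, against 97 over all genes. The median was 181 in the 25 promoters open in all libraries (112 for all genes of that state), 169 in the 11 open in some (94) and 98.5 in the 12 open in none (28). Without FOXD4 and its copies, the 6 promoters closed in every library had a median of 167.5 CpG, with 196 at FOXL3, 179 at FOXI2, 170 at FOXE3 and 165 at FOXL2. Closed forkhead promoters thus included some with as many CpG as open ones. At the other end, FOXP2 had 20 CpG around its canonical TSS and was open in all 8 libraries.

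FOXD4 and its 5 copies are small genes of nearly the same sequence, 5 of them on chromosome 9. Their gene sequences were 86.56% to 99.66% identical over the 15 pairs, with the highest value between FOXD4L3 and FOXD4L6, while FOXD4 and FOXD1 were 59.25% identical. The 150 bases before the TSS of FOXD4 (GRCh38.p14, chr9:118418-118567, minus strand) and of FOXD4L6 (chr9:41128682-41128831, minus strand) are shown, from RefSeq, because none of their bases lay in a peak in any library. CpG are in capitals.
FOXD4: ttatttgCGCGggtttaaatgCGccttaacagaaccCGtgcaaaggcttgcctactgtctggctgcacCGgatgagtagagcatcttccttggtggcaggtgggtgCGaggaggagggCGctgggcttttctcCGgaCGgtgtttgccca
FOXD4L6: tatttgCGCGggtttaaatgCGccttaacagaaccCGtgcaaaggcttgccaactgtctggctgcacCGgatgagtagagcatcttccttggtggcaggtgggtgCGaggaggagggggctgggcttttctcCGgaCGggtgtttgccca
Reads from such copies can align to several places. How these reads were treated is not given in the sources used here, and their part in the missing peaks was not tested. The nearest peak to the TSS in any library was 3.00 kb away at FOXD4, 3.67 kb at FOXD4L1 and 39.6 kb at FOXD4L6. For the other closed genes it was 1.24 kb away at FOXN1, 1.80 kb at FOXL2, 4.36 kb at FOXE3, 4.45 kb at FOXI1, 30.3 kb at FOXL3 and 42.3 kb at FOXI2.

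The first comparison asked which forkhead promoters closed in a mutant line. A promoter was called lost where it was open in each WT library but in no library of the mutant, and gained in the reverse case. Of the 33 forkhead promoters open in both WT libraries, 7 were lost in Y641F (6.72% of 13867 genes were), 2 in A677G (2.22% of all genes) and 1 in LOF (1.5% of all genes). No forkhead promoter was gained among the 12 closed in both WT libraries, where 0.24%, 0.327% and 0.632% of all such genes were gained in the 3 mutants. The 7 promoters lost in Y641F were those of FOXA1, FOXC1, FOXC2, FOXE1, FOXK1, FOXN4 and FOXS1. FOXE1 and FOXK1 were also lost in A677G, and FOXC1 was also lost in LOF. The A677G count was 4 without WT 1 (3.56% of all genes), without A677G 1 (3.27%) or without A677G 2 (5.31%), and the LOF count was 2 without WT 1 (2.71%) and 3 without LOF 2 (3.06%). Without WT 2, 1 promoter was gained in A677G (0.636%) and 1 in LOF (1.23%). With a window of 2 kb the counts stayed at 7, 2 and 1 but the genes changed: FOXK1 and FOXC1 were each open in 7 libraries and no longer lost, while FOXH1 was lost in Y641F and FOXL2 in all 3 mutants. The FOXL2 call rests on the border of the window, because a region in the gene body reaches it (hg38, chr3:138944432-138945332). As a whole, that region had a peak in 6 libraries: both WT, Y641F 2, both A677G and LOF 2. It was not called lost in any mutant.

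FOXK1 and FOXE1 had a promoter peak in all 4 WT and LOF libraries and none in the 4 GOF libraries, as did 0.317% of the 13240 genes open in those 4. Of the forkhead genes 30 were open in those 4 libraries. FOXK1 is a broadly expressed repressor that acts in metabolism and autophagy. Its promoter peak was 550 and 365 bp wide in WT and 302 bp in LOF 1, and it was wider than all of these in LOF 2, with a fold of 3.13 and 2.89 in WT and 2.85 and 3.37 in LOF. These 4 peaks covered all of the 150 bases before the TSS (GRCh38.p14, chr7:4682145-4682294, plus strand, from RefSeq), which no GOF peak touched, although 3 of the GOF libraries had a peak within 2 kb of a TSS. The stretch is shown with its 29 CpG in capitals.
FOXK1: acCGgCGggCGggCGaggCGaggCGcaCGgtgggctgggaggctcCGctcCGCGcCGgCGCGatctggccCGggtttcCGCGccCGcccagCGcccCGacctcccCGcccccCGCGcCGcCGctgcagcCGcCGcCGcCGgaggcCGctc
FOXE1, a factor of thyroid and palate development, had peaks of 483 and 267 bp in WT and of 522 and 514 bp in LOF, with a fold of 3.31, 3.99, 3.25 and 3.25. The WT and LOF peaks lay downstream of the TSS and left the 150 bases before it uncovered, and with a window of 500 bp FOXE1 was open in 1 library and not called lost. The −log10 p was low for both genes, between 3.56 and 5.27 for FOXK1 and between 3.75 and 5.31 for FOXE1 in the 4 libraries with a peak.

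The paralogs FOXC1 and FOXC2, which act in vessels, eye and kidney, had a peak in each WT library and in neither Y641F library. FOXC1 had peaks of 300 and 206 bp in WT and of 461 bp in A677G 1, and none in the other libraries, LOF included. Its fold was 2.04 and 2.05 in WT, the lowest of any forkhead promoter in each WT library, and 2.23 in A677G 1. The WT peaks covered 150 and 141 of the 150 bases before the TSS (GRCh38.p14, chr6:1609765-1609914, plus strand, from RefSeq), which are shown with CpG in capitals.
FOXC1: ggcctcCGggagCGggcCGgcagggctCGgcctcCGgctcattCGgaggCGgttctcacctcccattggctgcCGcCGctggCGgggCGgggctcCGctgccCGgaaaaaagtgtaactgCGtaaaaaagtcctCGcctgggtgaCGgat
FOXC2 had peaks of 977 and 584 bp in WT, 487 and 922 bp in A677G and 817 bp in LOF 2. Its closed libraries were those of Y641F and LOF 1.

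FOXA1, a pioneer factor of endoderm and hormone-responsive tissues, had promoter peaks of 2078 and 806 bp in WT, 1631 bp in A677G 2, and 672 and 730 bp in LOF. It was closed in both Y641F libraries and in A677G 1, and its window also holds a start site of TTC6. FOXA2 differed from it, with peaks in WT 2 and both LOF libraries only, of 278, 290 and 907 bp. FOXN4, a factor of retina and spinal cord, had peaks of 1609 and 1498 bp in WT, 672 bp in A677G 1, and 675 and 1469 bp in LOF. FOXS1 had narrow peaks of 343 and 351 bp in WT, 309 bp in A677G 2, and 203 and 223 bp in LOF. With a window of 500 bp FOXS1 was open in no library, and with at least 100 bp covered in 1. It was not called lost under either setting. Of the remaining genes open in some libraries, FOXD3 of the neural crest missed a peak only in LOF 1, with widths of 1646 and 1626 bp in WT, 439 and 448 bp in Y641F, 650 and 486 bp in A677G and 452 bp in LOF 2. FOXH1 was open in WT 2 alone. FOXR1 was open in WT 2, both A677G libraries and LOF 2, with widths between 200 and 361 bp.

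The forkhead promoters that closed in Y641F were, apart from FOXS1, the weakest ones in WT. Over the 2 WT libraries the mean −log10 p of the strongest promoter peak had a median of 8.08 in the 33 forkhead genes and 11.51 in all 13867 genes open in both. All 6 forkhead genes with a mean below 5 were lost in Y641F, and 59.5% of the 583 genes in that range were. Between 5 and 7.5, FOXS1 was lost among 8 forkhead genes, and 22.5% of all genes. Between 7.5 and 10, 0 of 7 forkhead genes were lost (3.78% of all genes), and from 10 upward 0 of 12 (0.223%). The losses in A677G and LOF likewise fell among the 6 weakest, with 2 and 1 of them lost, beside 28.1% and 20.8% of all genes in that range. At an equal number of peaks per library, the 25423 most significant, 20 forkhead promoters were open in both WT libraries and 0 were lost in Y641F (2.18% of all genes), 0 in A677G and 1, FOXB1, in LOF. Under that setting FOXF1 was gained in all 3 mutants and FOXO3 in Y641F and A677G, 2, 2 and 1 of 24 genes, beside 3.57%, 3.24% and 2.11% of all genes.

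**Figure D3:**
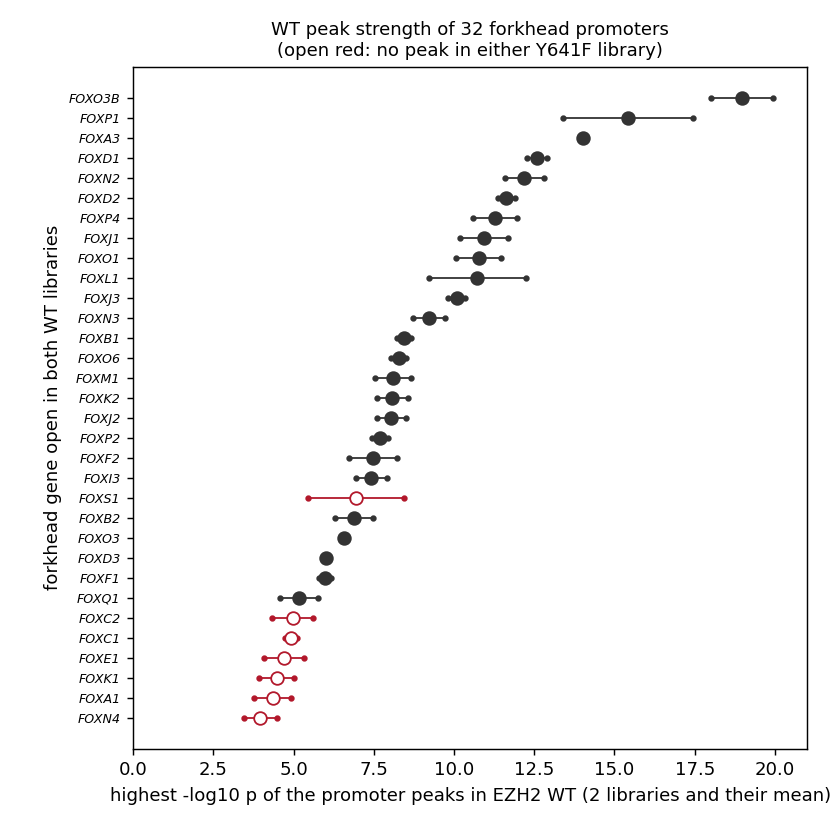
Highest −log10 p of the promoter peaks in EZH2 WT (x axis) for 32 of the 33 forkhead genes open in both WT libraries (rows). Small points are the 2 libraries and large symbols their mean, and open red symbols are genes with no peak in either Y641F library. The 6 lowest genes and FOXS1 are the open red ones.

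The second comparison concerned how much of a promoter was open in the 25 forkhead genes with a peak in all 8 libraries. Forkhead promoters were broad in WT, with a median over the 33 genes open there of 1553.5 bp against 1275.5 bp for all genes, and a lower fold, 3.65 against 4.27. In the 25 genes the median width was 1669 and 1671 bp in WT, 657 and 864 bp in Y641F, 830 and 1152 bp in the A677G line, and 1214 and 1217 bp in LOF. The medians of all 11404 such genes were 1358 and 1339 bp in WT, 787 and 988 bp in Y641F, 985.5 and 1076 bp in the A677G line, and 1113 and 1140 bp in LOF. Forkhead promoters were thus the broader set in WT and the narrower set in both Y641F libraries and in A677G 1.

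Widths were tested with limma on log2 values, each library centred on its median over the 11404 genes. With that centring, a width lower than WT means a change below that of the library medians. Without centring, the median change over the genes was −0.58 in Y641F, −0.35 in A677G and −0.22 in LOF on the log2 scale. In Y641F, 20 of 25 forkhead genes had a negative centred difference, with a median of −0.41 against 0.04 over all genes. By mean WT width, 784 of 2247 genes below 1000 bp were negative, 1924 of 4651 from 1000 to 1500 bp, and 2651 of 4506 from 1500 bp. For forkhead genes these were 3 of 4, 6 of 6 and 11 of 15. The medians in these ranges were 0.18, 0.09 and −0.12 over all genes, and −0.14, −0.72 and −0.52 over forkhead genes. In A677G 15 of the 25 forkhead genes were negative (median −0.21) and in LOF 16 (median −0.19). In the same width ranges, 696, 1791 and 2654 of all genes were negative in A677G, and 2, 3 and 10 forkhead genes. For LOF these were 751, 1906 and 2404 of all genes, and 2, 2 and 12 forkhead genes. No forkhead gene passed an adjusted p of 0.05 for Y641F against WT, where 0.105% of all genes did, and 10 of 25 had an unadjusted p under 0.05 (20% of all genes). For A677G, LOF and the GOF lines against WT and LOF, 0% of all genes passed, and 2, 2 and 8 forkhead genes had an unadjusted p under 0.05 (8.01%, 4.76% and 15.7% of all genes). Without centring, 7 forkhead genes passed in Y641F, among them FOXA3, FOXB2, FOXD1, FOXK2, FOXM1 and FOXO1, all narrower, among 1621 genes in all (14.2%). Without Y641F 2, 471 of 11486 genes passed (4.1%), 3 of them forkhead genes, namely FOXD1 and FOXP1, which were narrower, and FOXN2, which was wider after centring.

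**Figure D4:**
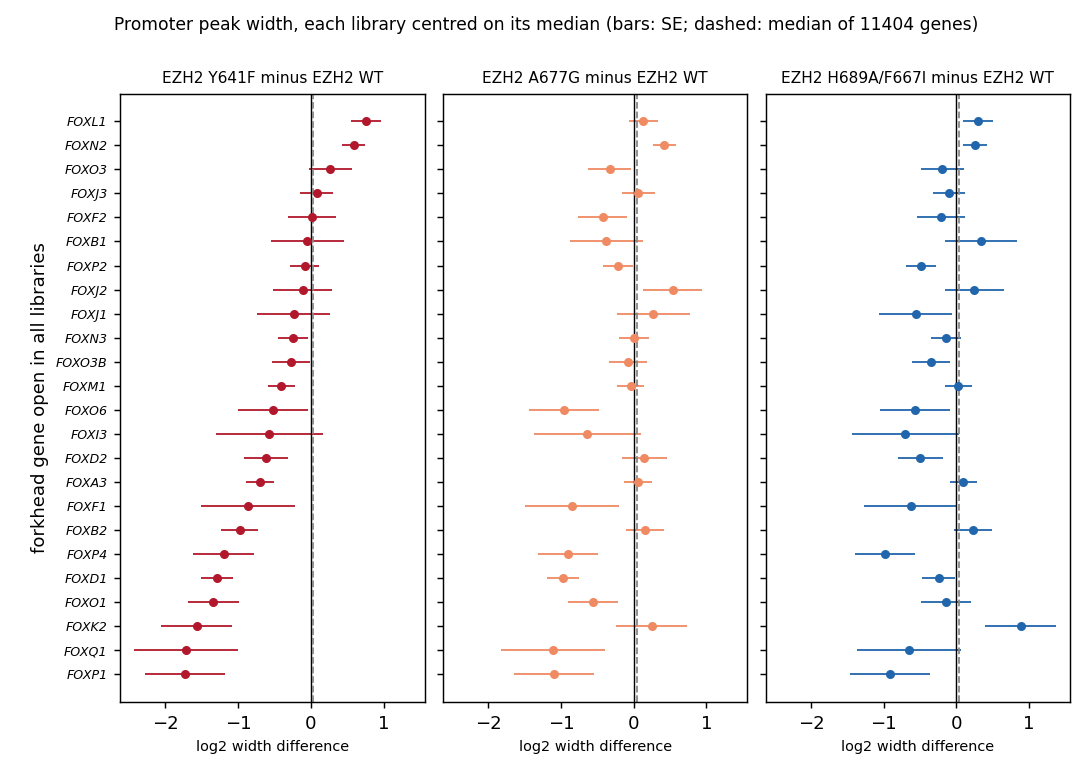
Difference in log2 promoter peak width from EZH2 WT (x axis) for 24 of the 25 forkhead genes open in all 8 libraries (rows, in the order of the Y641F difference), in 1 panel per mutant. Points are limma estimates with their SE after centring of each library, and the dashed line is the median over 11404 genes. In the Y641F panel 19 of the 24 points lie below 0.

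FOXD1, a factor of kidney stroma and retina, had the smallest unadjusted p for width among the 25 genes in Y641F and in A677G, and was narrower in each. Its promoter peaks were 1856 and 1470 bp wide in WT, 341 and 574 bp in Y641F, 625 and 661 bp in the A677G line, and 1214 and 1118 bp in LOF. All 4 GOF values lay below all 4 others. The centred log2 difference was −1.29 ± 0.22 (SE) in Y641F (limma adjusted p = 0.0865) and −1.01 ± 0.16 for the GOF lines against WT and LOF (limma adjusted p = 0.0907), so neither passed. The call passed without centring (limma adjusted p = 0.0202 and 0.0274), at a −log10 q of at least 5 (0.0326 and 0.0347) and without Y641F 2 (0.0323 and 0.0381), while in Y641F the adjusted p was 0.382 without WT 2 and higher still without WT 1. The GOF peaks at FOXD1 still covered the TSS side of the promoter, with 122 of the 150 bases before it in Y641F 1 and all 150 in the others (GRCh38.p14, chr5:73448778-73448927, minus strand, from RefSeq). The stretch is shown with CpG in capitals.
FOXD1: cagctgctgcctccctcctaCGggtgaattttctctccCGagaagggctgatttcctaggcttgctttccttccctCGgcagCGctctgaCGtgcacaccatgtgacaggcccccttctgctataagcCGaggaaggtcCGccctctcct

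The bases of the promoter covered by peaks were lower in all 4 GOF libraries than in all 4 WT and LOF libraries for 8 of the 36 forkhead genes with any promoter peak, among them FOXA3, FOXD1, FOXE1, FOXK1, FOXM1, FOXN4 and FOXO1. This held for 15.5% of the 14956 genes, and the reverse order held for 0.0201% of genes and 0 forkhead genes. FOXM1 had 1683 and 1671 covered bases in WT, 682 and 1002 in Y641F, 1228 and 1264 in the A677G line, and 1569 and 1292 in LOF. FOXM1 shares its window with the start sites of RHNO1 and TULP3, and FOXA3 with that of SYMPK, so their peaks cannot be given to either gene. The same limit holds more widely. Another gene of any type starts within 1 kb at 18 of the 48 forkhead genes, and another coding gene at 4. Long non-coding RNA genes start there at FOXB1, FOXD1, FOXE1, FOXK2, FOXN2, FOXP1 and FOXP4, among others. FOXO1 had 911 and 1201 covered bases in WT, 590 and 375 in Y641F, 60 and 502 in the A677G line, and 726 and 627 in LOF. Of other promoters open throughout, that of FOXP4, a factor of lung and gut, was 1517 and 1959 bp wide in WT, 291 and 826 bp in Y641F, 694 and 719 bp in the A677G line, and 928 and 575 bp in LOF, with every mutant library below WT. That of FOXK2, the paralog of FOXK1, was 1948 and 595 bp wide in WT, 231 and 243 bp in Y641F, 830 and 1146 bp in the A677G line, and 1538 and 1795 bp in LOF, and the WT libraries differed from each other more than either did from some of the mutants. FOXL1 and FOXN2 went the other way after centring, with widths of 948 to 1140 bp and 2023 to 2041 bp in Y641F beside 895 to 983 bp and 2056 to 2081 bp in WT, and neither passed (limma adjusted p = 0.178 and 0.180). The FOXL1 peaks lay at a start site other than that of the canonical transcript, which had no peak within 1 kb in any library.

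FOXA3, FOXF2 and FOXO3 had a higher centred fold in Y641F than in WT, 3 of 25 genes, where 2.62% of all genes passed, 195 of those 299 higher. Without centring 669 genes passed, 92 of them higher, and FOXA3 and FOXF2 still passed. The window of FOXA3 also holds a start site of SYMPK, so peaks there cannot be given to either gene. FOXA3, a liver-enriched factor, had a fold of 3.88 and 3.94 in WT, 5.69 and 5.55 in Y641F, 4.18 and 4.68 in the A677G line, and 4.15 and 4.46 in LOF. Every mutant library lay above both WT libraries and the Y641F libraries above all others, with a log2 difference of 0.63 ± 0.10 (SE; limma adjusted p = 0.0279). Over the same libraries its width was 2002 and 1940 bp in WT, 645 and 976 bp in Y641F, 1703 and 1436 bp in the A677G line, and 1770 and 1750 bp in LOF. The fold is an average over a peak, and the peak was narrowest in the libraries with the highest fold. The part of the width in the fold was not tested. The 150 bases before the TSS (GRCh38.p14, chr19:45864176-45864325, plus strand, from RefSeq; CpG in capitals) were covered in WT, by 150 and 110 bases, and by none in Y641F.
FOXA3: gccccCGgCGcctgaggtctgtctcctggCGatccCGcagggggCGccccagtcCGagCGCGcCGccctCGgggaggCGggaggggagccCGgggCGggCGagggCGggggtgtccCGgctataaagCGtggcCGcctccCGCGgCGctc

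FOXF2, a factor of mesenchyme in palate and gut, had a fold of 2.76 and 3.08 in WT, 4.02 and 3.71 in Y641F, 3.70 and 3.72 in the A677G line, and 3.57 and 3.56 in LOF, and again both WT libraries were the lowest. The difference was 0.51 ± 0.09 (SE; limma adjusted p = 0.0292) in Y641F. In A677G it was 0.39 ± 0.09 (limma adjusted p = 0.131) and in LOF 0.31 ± 0.09 (limma adjusted p = 0.402). The differences between the mutants were not tested. FOXO3, a stress-responsive factor restrained by AKT, had a fold of 2.41 and 2.44 in WT, 2.77 and 3.46 in Y641F, 2.86 and 2.58 in the A677G line, and 2.37 and 2.58 in LOF. The Y641F libraries differed from each other more than the WT libraries did, and the difference from WT was 0.46 ± 0.10 (SE; limma adjusted p = 0.0384). All 3 calls were lost without WT 1, without WT 2 or without Y641F 1, where 0% of all genes passed. The FOXO3 call was also lost without centring (limma adjusted p = 0.0693), without Y641F 2, without LOF 1, without LOF 2 and with a filter that asked for a peak in 1 library of each line. With a window of 500 bp FOXO3 passed, and FOXA3 and FOXF2 could not be tested. For A677G and LOF against WT, 0% of all genes passed in fold, and 7 and 4 forkhead genes had an unadjusted p under 0.05 (14.1% and 8.68% of all genes). For the GOF lines against WT and LOF 0.36% of all genes passed and 0 forkhead genes, with 6 at an unadjusted p under 0.05 (18.5% of all genes) and FOXA3 nearest to the threshold (limma adjusted p = 0.0540). Without Y641F 2, FOXB1 and FOXF2 passed in that contrast (1.23% of all genes).

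The promoters with the highest fold in WT were those of FOXO3B, FOXP1 and FOXJ3. FOXO3B, a copy of FOXO3, had a fold of 6.59 and 6.82 in WT, 6.32 and 6.66 in Y641F, 7.08 and 6.92 in the A677G line, and 8.66 and 6.23 in LOF. The lines overlapped, and the bases before its TSS lay in a peak in every library. Its window also holds a start site of ZNF286B. Whether reads of this window could also be placed at FOXO3 was not tested. The 150 bases before its TSS (GRCh38.p14, chr17:18682315-18682464, minus strand, from RefSeq; CpG in capitals) are shown as the strongest forkhead promoter.
FOXO3B: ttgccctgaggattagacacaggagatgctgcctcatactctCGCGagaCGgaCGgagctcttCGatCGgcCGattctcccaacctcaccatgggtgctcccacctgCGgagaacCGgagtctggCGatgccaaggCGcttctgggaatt
FOXJ3 had a fold of 5.56 and 4.34 in WT, and between 3.53 and 3.89 in the 6 mutant libraries, all below WT. FOXP1, a factor of B cells, heart and brain, had a fold of 5.77 and 6.82 in WT, 5.40 and 5.78 in Y641F, 7.46 and 8.04 in the A677G line, and 7.43 and 7.03 in LOF.

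The widest promoters in WT were those of FOXP1, FOXP2 and FOXN3, which have many annotated start sites, 67, 30 and 19. FOXP1 promoter peaks summed to 9602 and 8337 bp in WT, 853 and 3628 bp in Y641F, 2494 and 4100 bp in the A677G line, and 2894 and 5450 bp in LOF. All mutant libraries lay below both WT libraries, and the number of promoter peaks was 9 in each WT library and 3 to 8 in the mutants. FOXP2, a factor of speech circuits and lung, had 5676 and 5309 bp in WT, 2681 and 4274 bp in Y641F, 3488 and 3754 bp in the A677G line, and 2687 and 4005 bp in LOF. FOXN3 had 3495 and 2533 bp in WT, 1478 and 1829 bp in Y641F, 1905 and 2712 bp in the A677G line, and 2329 and 2161 bp in LOF. With the canonical transcript alone FOXP1 was open in 5 libraries and lost in LOF. None of the 3 passed the width test in Y641F, with limma adjusted p of 0.195 for FOXP1, 0.837 for FOXP2 and 0.525 for FOXN3.

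The third comparison concerned open regions inside the genes and away from promoters. Peaks of the 8 libraries were merged, and regions open in at least 2 libraries that lay in a gene body and touched no promoter window were kept. The forkhead genes held 81 such regions in 19 genes, 66 within introns and 15 reaching an exon. They were open in 70 and 69 cases in WT, 21 and 35 in Y641F, 41 and 46 in the A677G line, and 48 and 51 in LOF. Each WT count was above every mutant count, and the Y641F counts were the lowest. The 8 libraries stood in the same order by the number of autosomal peaks in their lists. The counts over the regions of all genes are not given here. Of the 60 regions with a peak in each WT library, 28 were lost in Y641F (47.2% of 15002 such regions of all genes), 21 in A677G (28.5%) and 13 in LOF (19.7%), or 22 (32.3%) without LOF 2. The forkhead shares were 46.7%, 35% and 21.7%, near those of all genes. Of 32 regions with a peak in every WT and LOF library, 4 had none in any GOF library (5.97% of 8419 in all genes), of which 2 lay in FOXP1, 1 in FOXA1 and 1 in FOXB1.

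FOXP1 and FOXP2 together held 31 of the 60 regions. In FOXP1, which spans 629.29 kb, 20 regions were open in both WT libraries, of which Y641F lost 12, A677G 10 and LOF 7. In FOXP2, 11 were open and 7, 4 and 3 were lost. In all other forkhead genes 29 were open and 9, 7 and 3 were lost. Of the 60 regions, 7 were lost in all 3 mutants (11.8% of the regions of all genes), 5 in FOXP1 and 2 in FOXP2. FOXO3, with 9 regions, had 5 open in both WT libraries, of which 1 was lost in Y641F, 1 in A677G and 0 in LOF.

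The lost FOXP1 region with the highest WT fold lay in an intron (hg38, chr3:71531192-71531544). Its fold was 5.62 and 5.49 in WT and 4.17 and 5.15 in LOF, and no GOF library had a peak there. The middle 150 bases of the stretch shared by the 4 peaks (hg38, chr3:71531293-71531442, plus strand, whereas FOXP1 lies on the minus strand) held 3 CpG, given in capitals, against 29 in the FOXK1 stretch that closed in the same libraries.
FOXP1 intron: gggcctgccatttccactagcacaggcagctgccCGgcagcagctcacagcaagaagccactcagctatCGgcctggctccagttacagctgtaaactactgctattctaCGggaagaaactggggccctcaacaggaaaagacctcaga
The next FOXP1 region of this kind (intronic, hg38, chr3:71194864-71195800) had a fold of 3.66 and 3.75 in WT and 3.67 and 3.92 in LOF. The lost FOXP2 region with the highest WT fold, which reached an exon (hg38, chr7:114659592-114660432), had a fold of 4.92 and 4.44 in WT, 3.73 and 2.92 in A677G, and 3.28 and 3.67 in LOF, and no peak in Y641F. In FOXO3 an intronic region (hg38, chr6:108588682-108589779) had a fold of 3.69 and 3.43 in WT and 3.06 in LOF 1, and none elsewhere. Other regions stayed open throughout, such as an intronic one in FOXP2 (hg38, chr7:114502229-114503169) with a fold between 4.77 and 6.34 in the 8 libraries.

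**Figure D5:**
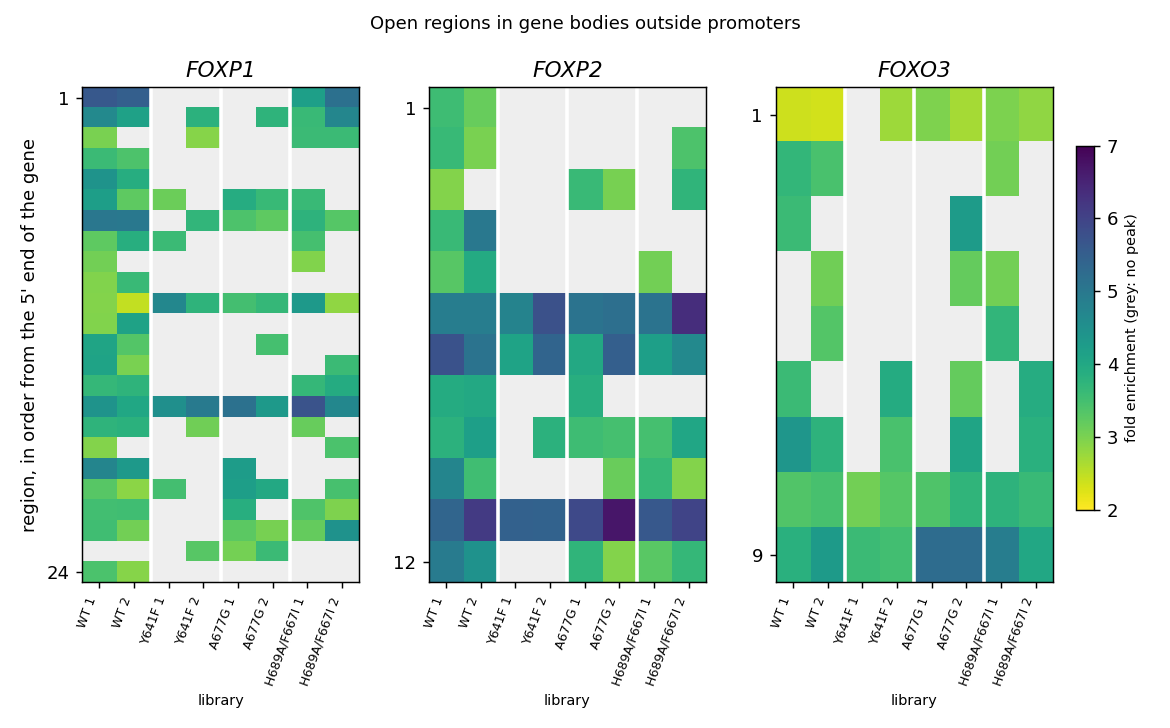
Fold enrichment (colour) of each open region outside promoters in the bodies of FOXP1, FOXP2 and FOXO3 (rows, from the 5′ to the 3′ end of the gene) in the 8 libraries (columns). Grey cells have no peak. In FOXP1 the WT columns hold 23 and 20 regions and the Y641F columns 5 and 7.

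Promoters of genes that work with forkhead factors were mostly open throughout. In a list of 32 genes of PI3K, AKT and FOXO signalling, 29 promoters were open in all 8 libraries, and IRS2, KLF2 and USP7 in some, and none was lost or gained in a mutant. The 3 incomplete promoters were closed in Y641F 1, and IRS2 also in A677G 1. In a list of 27 genes of FOXM1 and the cell cycle, 26 were open in all 8 libraries, and CENPB was lost in Y641F, with peaks of 282 and 338 bp in WT. None of the 26 passed in fold or width. The consensus of forkhead binding TGTTTAC, searched on both strands of the 300 bases around the start in RefSeq, was in 1 of 48 forkhead promoter entries, at FOXP1, and in 2.88% of 20584 entries of all genes.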

How the data were processed

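ATAC-seq peaks of 8 HEK293T libraries, 2 per line, described by the study as independent biological replicates, were used as deposited. Per the labels and methods, the authors used Trim Galore 0.6.5, BWA 0.7.17 on GRCh38 (hg38), Samtools to remove duplicates and MACS2 2.2.7.1 to call broad peaks in each library. The deposited columns used are the fold (ratio of signal to local background), the −log10 p and the −log10 q of each peak; the deposited score column was not used. Read depth, any Tn5 shift and the treatment of multi-mapping reads are not given in the sources used here, so no interval for counting error was possible.

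Genes and TSSs came from GENCODE 44. Promoter windows, states, widths and regions were computed in Python 3.11.15 with pandas 2.3.3, and gene sequences were aligned with Biopython 1.88. Log2 fold and log2 width of the 11404 genes open in all 8 libraries were fitted with limma 3.58.1 (R 4.3.3, eBayes with trend) over all 4 lines, centred per library on the median, with Benjamini-Hochberg adjustment over all genes and a threshold of 0.05. The scripts were tested on simulated data. Promoter sequences are from RefSeq (37 genes matched, 11 not) and the intron from the hg38 genome.

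The genes with values in the text are those open in no or only some libraries, lost, gained or called by limma, the 3 widest and the 3 with the highest fold in WT, the 3 with most regions in the gene body, and the FOXD4 copies. FOXD1, FOXM1, FOXO1, FOXL1, FOXN2, FOXP4, FOXK2, the fold of FOXB1 and the steady FOXP2 region were chosen after their values were seen. Members and lists were chosen with earlier results of these data known. Alternatives were a −log10 q of at least 5, an equal number of peaks, windows of 0.5 and 2 kb, at least 100 bp covered, canonical transcripts, no centring, a looser filter, a replicate block and leaving out each library. The values of some genes are not reported here, and 1 of the 48 is left out of the figures.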

Additional observations from a re-analysis of the deposited data

Results flagged for a closer look

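The promoter fold of FOXB1, a factor of the developing midbrain and hypothalamus, lay on opposite sides of WT in A677G and in the LOF (H689A/F667I) line. It was 3.55 and 3.71 in WT, 3.96 and 4.51 in A677G, and 3.25 and 3.10 in LOF, so both A677G libraries lay above both WT libraries and both LOF libraries below them. The mean in A677G was 1.06 higher than the mean in LOF. The difference between these lines was not tested, and neither line passed against WT (log2 difference 0.27, limma adjusted p = 0.437 in A677G; −0.17, limma adjusted p = 0.781 in LOF). In Y641F the fold was 5.18 and 3.71.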

How the results depend on the processing

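In this paragraph the share of all genes or regions under the same setting stands in parentheses. At a −log10 q of at least 5, 7 forkhead promoters were open in all 8 libraries (23.7%), 5 were lost in A677G (15.6%) and 6 in LOF (10.6%), and 9, 8 and 7 gene-body regions were lost in Y641F, A677G and LOF (62.9%, 44.3% and 31.9%). The genes lost there were other ones: FOXJ2, FOXJ3, FOXO1 and FOXP2 were lost in all 3 mutants. FOXL1, FOXM1, FOXO6 and FOXP4 were also lost in Y641F, FOXM1 in A677G, and FOXB1 and FOXO6 in LOF. The share of all genes lost in Y641F at that setting is not given here, so the Y641F losses cannot be set beside it. None of the promoters first called lost in Y641F was lost there, FOXS1 being open in 1 library and the others in none. At that setting 1 gene passed in fold in Y641F (1.81%), 1 in width in Y641F (1.26%) and 1 in width in the GOF contrast (0.508%). At an equal number of peaks, 16 promoters were open in all libraries (51.4%), 0 were lost in Y641F (2.18%) and 0 in A677G (1.15%), 2, 2 and 1 were gained (3.57%, 3.24% and 2.11%), and 5, 5 and 4 gene-body regions were lost (23.3%, 13.3% and 11.4%). The balance of losses and gains thus turned from 7 and 0 to 0 and 2 in Y641F, and from 2 and 0 to 0 and 2 in A677G. With a window of 500 bp, 1 promoter was lost in A677G (2.4%) and 2 in LOF (1.57%), and 1 passed in fold in Y641F (2.39%). With canonical transcripts only, 2 were lost in LOF (1.7%). Without centring, 7 passed in width in Y641F (14.2%) and 3 in the GOF contrast (4.99%), and the fold calls over all genes in Y641F turned from mostly higher to mostly lower. Leaving out 1 library gave 2 to 4 promoters lost in A677G, 1 to 3 in LOF, 0 to 1 gained in A677G and in LOF, 13 to 22 gene-body regions lost in LOF, 0 to 3 calls in fold and 0 to 3 in width in Y641F, and 0 to 2 in fold and 0 to 1 in width in the GOF contrast. The cause of these changes was not tested. The fold differences of FOXA3, FOXF2 and FOXO3 and the width difference of FOXD1 kept their sign wherever they could be fitted. Same-numbered libraries did not deviate together (correlations from −0.0188 to 0.0565), so the numbers were not taken as pairs. With a replicate block, the fold calls in Y641F numbered 3 forkhead genes and 270 of all genes, the fold calls in the GOF contrast 11 of all genes against 41, and the width calls in Y641F 0 against 12. Without a known read depth, a missing peak cannot be told from a site too weak to be called.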

Other observations

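The X-linked forkhead genes were not among the 48. FOXO4, a FOXO factor regulated by AKT, had a promoter peak in all 8 libraries, with a fold of 3.82 and 3.90 in WT, 3.96 and 4.52 in Y641F, 4.32 and 3.72 in the A677G line, and 3.51 and 4.02 in LOF. The lines overlapped. FOXP3, the factor of regulatory T cells, and FOXR2 had no promoter peak in any library.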
